A study of Mus musculus with 55 samples.

Results

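The 10 genes described here carry glucose into cells, bind insulin or insulin-like growth factor, pass that signal on, or answer to it in the nucleus. They are the glucose transporters Slc2a1 and Slc2a4, the receptors Insr and Igf1r, the receptor substrates Irs1 and Irs2, the forkhead factors Foxo1 and Foxo3, and the FoxO target genes Sesn3 and Fbxo32. They were taken by symbol, matched to the Ensembl identifiers of the count tables, and all 10 were found among the 56867 genes present in both tables. The tissue sequenced was infarcted left ventricle from mice of the C57BL/6J strain, with no transgene named, after the coronary artery had been tied off for good. Every group, the non-diabetic controls included, had an infarct, and no uninjured heart was analysed here. Day 7 after infarction is represented by 8 libraries from each of 3 groups (non-diabetic, type 1 diabetic and type 2 diabetic), and day 28 by 11 non-diabetic, 10 type 1 and 10 type 2 libraries. Library names of the type 1 groups carry hi STZ, those of the type 2 groups lo STZ HFFD and those of the controls Ctrl. Both diabetic groups thus share STZ, while its hi or lo mark and HFFD differ along with the type of diabetes. Diabetes and STZ itself cannot be told apart in either group, and the labels give neither age nor sex. Only day 7 appears in the design text, so day 28 is taken from the sample titles, and each day is a sequencing project of its own, so the effects of day and of project cannot be told apart.

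Insulin and insulin-like growth factor bind the related receptor kinases Insr and Igf1r, which phosphorylate the docking proteins Irs1 and Irs2 and through them activate phosphoinositide 3-kinase and Akt. Akt sends vesicles holding Slc2a4 (GLUT4) to the surface of cardiomyocytes and adipocytes, while Slc2a1 (GLUT1) carries glucose into most cells without insulin. Akt also keeps Foxo1 and Foxo3 out of the nucleus, where they would otherwise raise genes such as Sesn3, a stress-induced brake on mTORC1, and Fbxo32 (atrogin-1), a muscle ubiquitin ligase, and in several tissues Irs2 itself.

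Because Irs1 and Irs2 moved in opposite directions at day 28, the 250 bases before the start of each gene are shown here, from the RefSeq promoter table (GRCm38.p6, a build other than that of the counts). Irs1 lies on the minus strand, chr1:82291440-82291689, and Irs2 on the minus strand, chr8:11008930-11009179. Both are printed 5′ to 3′ on the strand of the gene. Capitals mark CACGTG, the palindromic E-box read by basic helix-loop-helix factors, and CAAAACAA, the insulin response sequence that FoxO factors can bind, which in both genes lies on the opposite strand and is therefore seen as its reverse complement.
Irs1: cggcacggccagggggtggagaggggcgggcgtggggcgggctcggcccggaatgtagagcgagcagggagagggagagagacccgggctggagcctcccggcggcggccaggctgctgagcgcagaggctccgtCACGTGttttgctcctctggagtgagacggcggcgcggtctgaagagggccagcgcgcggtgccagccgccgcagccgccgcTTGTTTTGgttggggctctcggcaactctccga
Irs2: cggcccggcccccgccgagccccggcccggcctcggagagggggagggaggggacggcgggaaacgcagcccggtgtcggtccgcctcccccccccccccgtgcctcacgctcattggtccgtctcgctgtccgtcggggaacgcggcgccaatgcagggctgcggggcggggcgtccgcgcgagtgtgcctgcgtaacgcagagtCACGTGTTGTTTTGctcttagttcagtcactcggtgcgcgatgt
In Irs2 the E-box began 44 bases before the start and the insulin response sequence directly followed it, beginning 38 bases before the start. In Irs1 the same words stood apart, the E-box at 115 and the insulin response sequence at 33 bases before the start. Of 32817 mouse promoters of this length, 6.02% held CACGTG, 2.22% held CAAAACAA on either strand and 0.101%, or 33 promoters, held both. Of the 7 members found in the table, Irs1 and Irs2 held both words, and the other 5, Slc2a1, Igf1r, Foxo1, Foxo3 and Sesn3, held neither. GTAAACA, the forkhead core, occurred in 3.16% of promoters and in 0 of the 7. The words were chosen after the sequences had been seen, and a match is a run of letters, not a bound site.

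Levels below are TMM-scaled CPM per kilobase of exon model (CPM per kb), and changes are log2 values from edgeR's quasi-likelihood test with their standard error (SE). A gene is said to have risen or fallen where its Benjamini-Hochberg adjusted p over all genes tested was at or under 0.05. Library totals ran from 10.8 to 51.2 M (mega) counts at day 7 and from 48.1 to 92.9 M at day 28, and the fewest counts of any member in any library were 338. Whether replicates come from different animals is not stated, so p-values measure only how far these libraries spread, which may be technical. Library names begin with a number that several libraries of a group share (4 to 6 such numbers a group), of unstated meaning, and results were also computed with those libraries summed. All 20 cardiomyocyte markers were detected, which any heart tissue would show, so they cannot test whether the tissue was infarct. Their level varied widely between libraries, for reasons that were not tested. The mean log2 CPM of these markers at day 7 was 9.23 ± 0.59 in controls, 8.20 ± 1.22 in the type 1 and 8.96 ± 0.80 in the type 2 group (SD, n = 8 each). At day 28 it was 10.98 ± 0.32 in 11 controls, 10.73 ± 0.27 in 10 type 1 and 10.62 ± 0.70 in 10 type 2 libraries. Of the markers, 2 of 20 were called lower in type 1 than in non-diabetic tissue at day 7, and 0 were called in the other 3 comparisons with controls. The libraries that stood apart were type 1 replicate 4 at day 7 (marker mean 5.90, with summed adipocyte markers at 596 CPM and B and plasma cell markers at 4102 CPM) and type 2 replicate 4 at day 28 (8.81, with B and plasma cell markers at 7691 CPM).

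Type 1 diabetic infarcts at day 7 had less RNA of the insulin-sensitive transporter, of 1 receptor substrate, of Foxo3 and of the FoxO targets Sesn3 and Fbxo32, and more of the insulin-independent transporter. Of the 10 genes, 5 fell (Slc2a4, Irs1, Foxo3, Sesn3 and Fbxo32) and 1 rose (Slc2a1), where 11.4% of all 18165 genes tested fell and 11.1% rose. In type 2 tissue at the same day 0 of the 10 were called, against 3.85% of all genes called higher and 3.5% called lower. DESeq2 and limma-voom also called 0 there, and 0 of the 10 had an unadjusted p under 0.05 in edgeR. The median change of the 10 was -0.30 in type 1 and -0.12 in type 2 tissue, beside -0.01 and -0.03 over all genes. Both comparisons share the same non-diabetic libraries. By day 28 the pattern was another one in both diabetic groups, with Irs1 lower and Irs2 higher. There, 1 of 10 rose and 1 fell in type 1 tissue (2.6% and 1.41% of all 18901 genes), and likewise in type 2 tissue (7.21% and 3.5%).

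**Figure D1:**
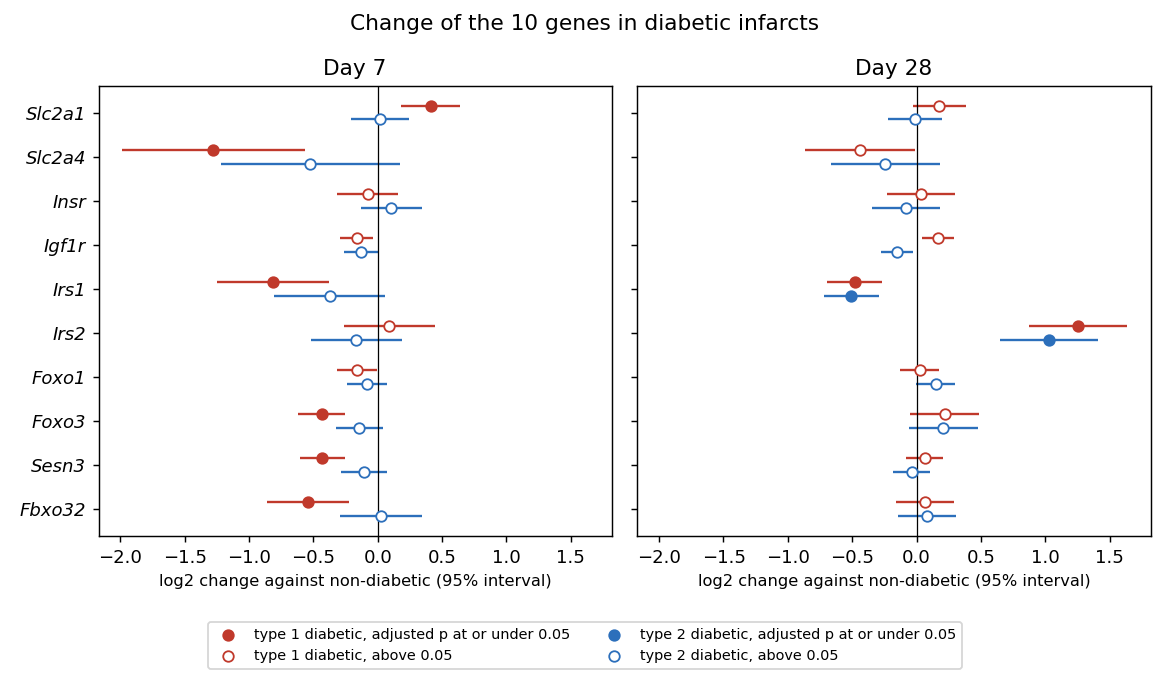
Change of the 10 genes against non-diabetic infarcts of the same day. The x axis is the log2 change with its 95% interval from edgeR, red is type 1 and blue type 2 diabetic tissue, and filled points have an adjusted p at or under 0.05. At day 7 all 6 filled points are type 1. At day 28 the filled points are Irs1 (-0.48 and -0.51) and Irs2 (1.25 and 1.03) in both.

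Slc2a4, the transporter of cardiomyocytes and fat that insulin brings to the surface, had the largest change of the 10 at day 7. Its level ran from 9.05 to 34.8 with a median of 16.5 CPM per kb in non-diabetic tissue, from 2.80 to 12.6 with a median of 8.38 in type 1, and from 4.21 to 18.8 with a median of 14.9 in type 2 tissue. All 8 type 1 libraries lay below the non-diabetic mean and 4 of them below every non-diabetic library, so the groups still overlapped. Slc2a4 was 2.42-fold lower in type 1 than in non-diabetic infarcts, a log2 change of -1.28 (SE 0.35, adjusted p = 0.0101). For type 2 tissue the log2 change was -0.52 (95% interval -1.22 to 0.18, adjusted p = 0.377), and type 1 against type 2 gave -0.75 (adjusted p = 0.223). Each library's Slc2a4 level followed its cardiomyocyte markers. After the group means had been subtracted, Pearson's r between Slc2a4 and the marker mean was 0.93 over the 55 libraries, which share their depth and their scaling. At day 7 its r was -0.67 with the macrophage and -0.67 with the neutrophil markers, which rose in type 1 tissue (7 of 10 and 6 of 8 called higher) and whose part was not tested. Its r at day 7 was 0.70 with the mural markers, which fell in type 1 tissue (4 of 8 called lower) and whose part was not tested either. In bulk tissue, fewer surviving cardiomyocytes and less Slc2a4 RNA per cardiomyocyte cannot be told apart by level alone. With the marker mean as a covariate the type 1 change at day 7 was smaller, -0.57, and was still called (adjusted p = 0.0123).

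The Slc2a4 level was higher at day 28 in every group, but each day was scaled apart, and day and project cannot be told apart. It ran from 38.3 to 88.2 with a median of 58.8 in non-diabetic, 33.0 to 65.3 with a median of 39.3 in type 1, and 12.6 to 83.9 with a median of 49.0 in type 2 tissue. The ranges overlapped widely and no comparison passed. The change was -0.44 in type 1 (SE 0.21, adjusted p = 0.240) and -0.24 in type 2 tissue (SE 0.21, adjusted p = 0.501). The type 1 value was called by limma-voom (adjusted p = 0.0142), which called 16% of all genes in that comparison where edgeR called 4.02%. The lowest of all day 28 libraries, at 12.6, was type 2 replicate 4, the one with the lowest cardiomyocyte markers. Skeletal muscle markers, which also come from Slc2a4-expressing cells, reached 3685 summed CPM in 1 type 1 library at day 28, and over the 31 libraries of that day their mean had an r of 0.02 with Slc2a4.

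Slc2a1, the insulin-independent transporter of vessels, immune cells and fibroblasts, went the other way. Its level in type 1 tissue at day 7 ran from 11.6 to 22 with a median of 14.9, against 10.5 to 15.1 with a median of 12.2 in non-diabetic and 9.97 to 15.3 with a median of 11.6 in type 2 tissue. Of the 8 type 1 libraries 7 lay above the non-diabetic mean and 3 above every non-diabetic library, and the lowest was replicate 4, the library poor in cardiomyocyte markers. Slc2a1 rose by 0.41 on the log2 scale, or 1.33-fold (SE 0.11, adjusted p = 0.0097), and the change was 0.41 with the cardiomyocyte covariate too (adjusted p = 0.0248). With libraries that share a name number summed, the change was 0.39 with an adjusted p of 0.0716. Type 2 tissue gave 0.02 (95% interval -0.21 to 0.25). At day 28 the medians were 10.1, 11.8 and 9.20, and neither diabetic group was called, with changes of 0.18 in type 1 and -0.01 in type 2 tissue. Beside Slc2a1, macrophage markers (7 of 10 called higher), neutrophil markers (6 of 8) and proliferation genes (10 of 10) rose in type 1 tissue at day 7, and fibroblast markers fell (7 of 9). Within groups over the 24 libraries of that day, Slc2a1 had an r of -0.62 with the fibroblast, 0.27 with the macrophage, 0.20 with the neutrophil and 0.37 with the proliferation list. With the erythroid markers, of which 5 of 7 were called higher in type 1 tissue at that day, its r was 0.36. The part of these cells in its rise was not tested.

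The balance of the transporters shows both movements at once. Per kilobase, non-diabetic tissue at day 7 held a median of 1.37 times as much Slc2a4 as Slc2a1 RNA (0.846 to 3.32), and the ratio was over 1 in 6 of 8 libraries. In type 1 tissue the median ratio was 0.545 (0.127 to 0.843), and 0 of 8 libraries were over 1. Type 2 tissue had a median of 1.20 (0.359 to 1.78), with 5 of 8 over 1. At day 28 every library of all 3 groups held more Slc2a4 than Slc2a1, with median ratios of 6.00 in controls, 3.57 in the type 1 and 4.74 in the type 2 group.

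**Figure D2:**
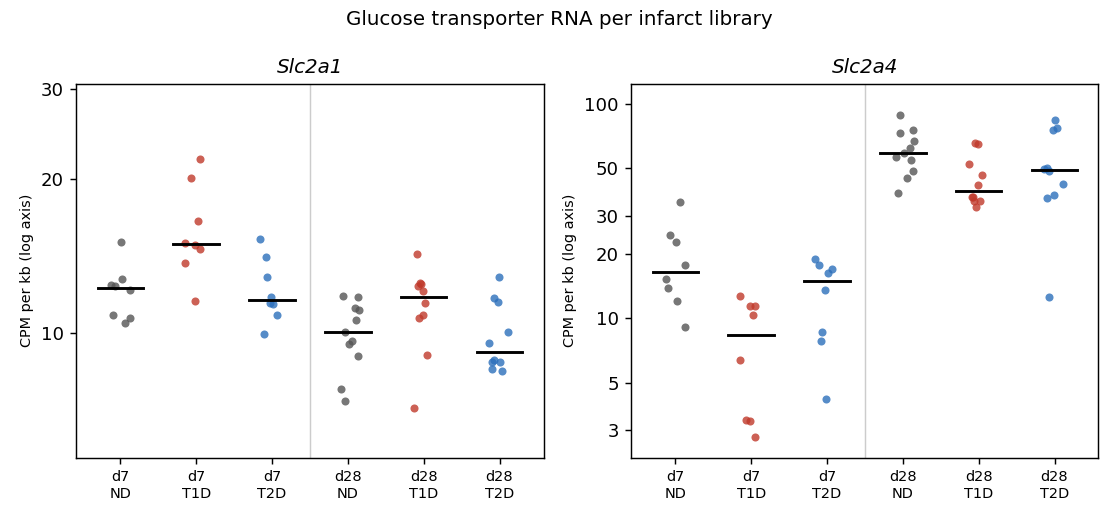
Slc2a1 and Slc2a4 RNA in each of the 55 infarct libraries, in CPM per kb on log axes. Points are libraries, bars are group medians, d7 and d28 are the days, and ND, T1D and T2D are non-diabetic, type 1 and type 2 diabetic tissue. At day 7 the type 1 median is the highest for Slc2a1 (14.9) and the lowest for Slc2a4 (8.38).

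The receptors themselves moved little. Insr, the insulin receptor, ran from 5.80 to 7.60 with a median of 6.49 CPM per kb in non-diabetic tissue at day 7, and its medians were 5.93 in type 1 and 6.82 in type 2 tissue. At day 28 the medians were 8.64, 8.82 and 8.27. Its 4 changes against controls lay between -0.08 and 0.11 and none was called. The 95% interval at day 28 was -0.23 to 0.30 in type 1 and -0.34 to 0.18 in type 2 tissue. Insr followed the cardiomyocyte markers within groups (r = 0.70, 55 libraries).

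Igf1r, the receptor for insulin-like growth factor 1, was the 1 member that separated the diabetic groups at day 28. Its level ran from 2.41 to 3.19 with a median of 2.82 in type 1, from 1.90 to 2.82 with a median of 2.23 in type 2, and from 2.03 to 2.92 with a median of 2.54 in non-diabetic tissue. All 10 type 1 libraries lay above the type 2 mean and 5 above every type 2 library, with controls between. Type 1 exceeded type 2 tissue by 0.32 on the log2 scale, or 1.25-fold (SE 0.06, adjusted p = 0.00279), where 1.19% of all genes were called higher and 2.03% lower in that comparison. Neither group alone passed against controls, with 0.17 in type 1 (adjusted p = 0.123, called by limma-voom at 0.21 with an adjusted p of 0.0103) and -0.15 in type 2 tissue (adjusted p = 0.114). Limma-voom called 16% of all genes in that type 1 comparison, and edgeR 4.02%. The type 2 value was called without non-diabetic replicate 11 or without type 2 replicate 10 (-0.19, adjusted p = 0.0364). With libraries that share a name number summed, the difference was 0.33 with an adjusted p of 0.114. At day 7 the type 1 change was -0.16 (adjusted p = 0.0634), called without replicate 2 of either group (lowest adjusted p = 0.0371). The type 1 effect was 0.31 higher at day 28 than at day 7 (SE 0.09, adjusted p = 0.0135).

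Irs1, the docking protein through which the insulin receptor acts in muscle, fell in type 1 tissue at both days and in type 2 tissue at day 28. At day 7 it ran from 2.17 to 6.44 with a median of 4.63 in non-diabetic, from 1.52 to 3.77 with a median of 2.40 in type 1 and from 2.59 to 4.65 with a median of 3.30 in type 2 tissue. All 8 type 1 libraries lay below the non-diabetic mean, and 4 below every control. The lowest control, replicate 5, was also the one with the lowest cardiomyocyte markers. The type 1 change was -0.81, or 1.76-fold lower (SE 0.21, adjusted p = 0.00751), and the type 2 change was -0.37 (SE 0.21, adjusted p = 0.290). Within groups over the 24 libraries of day 7, Irs1 had an r of 0.69 with the cardiomyocyte, -0.89 with the neutrophil, -0.51 with the macrophage and -0.51 with the erythroid markers. With the mural markers its r was 0.50. Neutrophil (6 of 8), macrophage (7 of 10) and erythroid markers (5 of 7) were called higher and mural markers (4 of 8) lower in type 1 tissue at that day. Their part in the fall was not tested. With the cardiomyocyte markers as a covariate the type 1 change at day 7 was -0.48 and no longer called (adjusted p = 0.0557), and with shared name numbers summed it was -0.71 (adjusted p = 0.0844).

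At day 28 the fall of Irs1 was narrower in spread and alike in size in both diabetic groups. Non-diabetic libraries ran from 4.10 to 5.53 with a median of 4.89, type 1 libraries from 3.12 to 4.72 with a median of 3.34, and type 2 libraries from 1.47 to 4.01 with a median of 3.51. Every control exceeded all 10 type 2 and 9 of the 10 type 1 libraries. How many of all genes separate so was not counted, and 10.7% of all genes were called in type 2 and 4.02% in type 1 tissue. Irs1 was 1.39-fold lower in type 1 (-0.48, SE 0.10, adjusted p = 0.0076) and 1.42-fold lower in type 2 tissue (-0.51, SE 0.10, adjusted p = 0.00167). The difference between the diabetic groups was 0.03 (95% interval -0.19 to 0.25). With the cardiomyocyte covariate both falls were called, at -0.36 (adjusted p = 0.000105) and -0.36 (adjusted p = 5.59e-05). Over the 31 libraries of day 28 Irs1 had an r within groups of 0.89 with the cardiomyocyte, -0.73 with the T and NK cell and -0.62 with the macrophage markers. Of those lists, 10 of 11 T and NK cell and 4 of 10 macrophage markers were called higher in type 2 tissue, and 0 and 1 in type 1 tissue, and the part of these cells was not tested. Without type 2 replicate 4, the library lowest in Irs1, the type 2 change was -0.42. With shared name numbers summed, which leaves fewer samples, the changes were -0.39 in type 1 (adjusted p = 0.300) and -0.49 in type 2 tissue (adjusted p = 0.0516) and were not called. With the replicate number as a block the type 1 change was -0.47 (adjusted p = 0.0538).

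Irs2, the docking protein prominent in liver and islets and a known FoxO target, rose in both diabetic groups at day 28 and had the largest change of the 10 there. Non-diabetic libraries ran from 2.55 to 4.85 with a median of 3.33, type 1 libraries from 4.79 to 18.1 with a median of 6.81, and type 2 libraries from 5.24 to 12.5 with a median of 6.49. All 10 type 2 and 9 of 10 type 1 libraries exceeded every control, and the exception was type 1 replicate 4 at 4.79. How many of all genes separate so was not counted, and 10.7% of all genes were called in type 2 and 4.02% in type 1 tissue. The rise of Irs2 was 1.25 on the log2 scale in type 1 (2.39-fold, SE 0.19, adjusted p = 0.00017) and 1.03 in type 2 tissue (2.04-fold, SE 0.19, adjusted p = 0.000423). Without type 1 replicate 10, the library at 18.1, the type 1 rise was 1.05. The diabetic groups differed by 0.23 (95% interval -0.16 to 0.61), and by 0.03 without that library. The rise was as large with the cardiomyocyte covariate, 1.32 in type 1 and 1.13 in type 2 tissue. With shared name numbers summed it was called in type 2 (1.14, adjusted p = 0.0273) but not in type 1 tissue (1.34, adjusted p = 0.0843), where 6 genes in all were called. T and NK cell markers (10 of 11) and proliferation genes (10 of 10) also rose in type 2 tissue at day 28, and 0 of 11 and 2 of 10 in type 1 tissue. Within groups over the 31 libraries of day 28, Irs2 had an r of -0.16 with the T and NK cell and -0.37 with the proliferation list. With the fibroblast markers its r was -0.42 and with the endothelial markers 0.33. The part of these cells in the rise of Irs2 was not tested.

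No such rise was called at day 7. Irs2 medians were 4.44 in controls, 5.50 in the type 1 and 4.65 in the type 2 group, with changes of 0.09 (95% interval -0.26 to 0.44) and -0.17 (-0.52 to 0.19). The highest control, replicate 5 at 8.69, exceeded every diabetic library of that day, and without it the type 1 change was 0.25 (adjusted p = 0.234). Over the 24 libraries of day 7 Irs2 had an r within groups of 0.68 with the neutrophil and -0.71 with the T and NK cell markers. The test of the difference itself gave a diabetic effect on Irs2 that was higher at day 28 by 1.15 in type 1 (SE 0.27, adjusted p = 0.0027) and by 1.16 in type 2 tissue (SE 0.27, adjusted p = 0.0174).

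Set against each other per kilobase, the substrates changed rank. In non-diabetic tissue at day 28 Irs2 RNA was below Irs1 RNA in all 11 libraries, with a median ratio of 0.708 (0.544 to 0.960). The ratio was over 1 in all 10 type 1 libraries (median 2.06, 1.02 to 5.66) and in all 10 type 2 libraries (median 1.96, 1.49 to 4.09). At day 7 it was over 1 in 3 of 8 non-diabetic, 8 of 8 type 1 and 7 of 8 type 2 libraries, with medians of 0.945, 2.43 and 1.45. At day 7 Irs1 was called in type 1 tissue and Irs2 was not, and at day 28 both substrates were called.

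**Figure D3:**
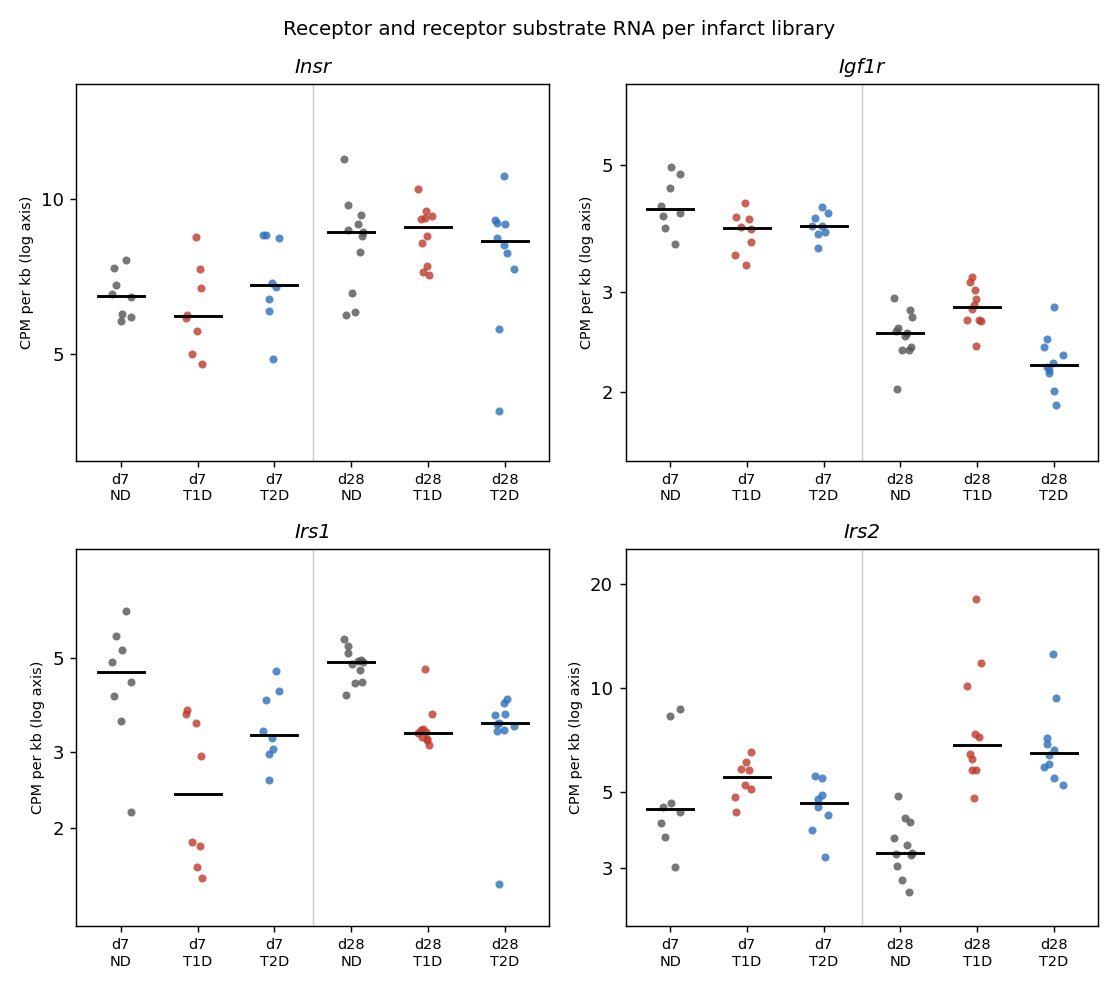
Insr, Igf1r, Irs1 and Irs2 RNA in each library, in CPM per kb on log axes, with group medians as bars and groups named as d7 or d28 and ND (non-diabetic), T1D (type 1) or T2D (type 2 diabetic). At day 28 Irs1 lies lower and Irs2 higher in both diabetic groups than in controls, while the Insr medians lie between 8.27 and 8.82.

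**Figure D4:**
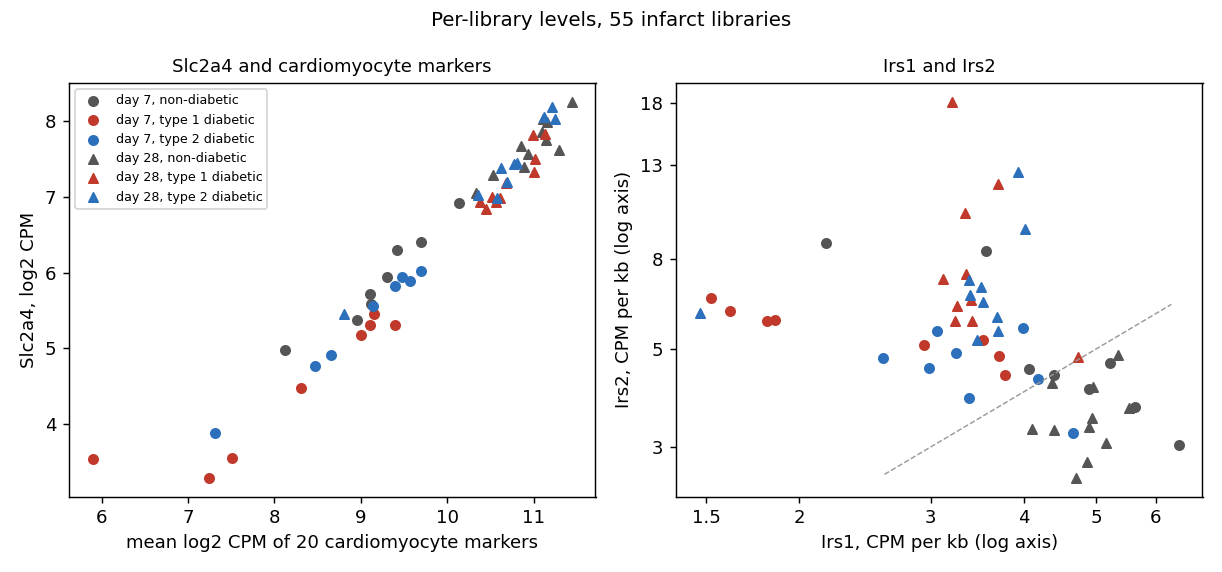
Left, Slc2a4 (log2 CPM) against the mean log2 CPM of 20 cardiomyocyte markers in each of the 55 libraries. Right, Irs2 against Irs1 in CPM per kb on log axes, where libraries above the dashed line hold more Irs2 than Irs1. All 20 diabetic libraries of day 28 lie above the line and all 11 controls of that day below it.

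Foxo3, the forkhead factor linked to atrophy and autophagy in muscle, fell in type 1 tissue at day 7. It ran from 11.6 to 15.3 with a median of 12 in non-diabetic, from 7.95 to 11.3 with a median of 8.73 in type 1 and from 9.19 to 14.1 with a median of 11.2 in type 2 tissue. All 8 type 1 libraries lay below every control. How many of all genes separate so was not counted, and 22.5% of all genes were called in that comparison. The type 1 change was -0.44, or 1.35-fold lower (SE 0.09, adjusted p = 0.0015), and it was called with the cardiomyocyte covariate (-0.43, adjusted p = 0.00428) and with shared name numbers summed (-0.46, adjusted p = 0.0157). Within groups over the 24 libraries of day 7, Foxo3 had an r of 0.04 with the cardiomyocyte and 0.44 with the fibroblast markers. Of the fibroblast markers 7 of 9 were called lower in type 1 tissue at that day, and their part in the fall was not tested. Type 2 tissue gave a Foxo3 change of -0.14 (adjusted p = 0.352). At day 28 the medians were 10.0, 11.6 and 12.3, with a wider spread in the diabetic groups (9.16 to 16.9 and 6.84 to 17.2), and the changes of 0.22 and 0.21 were not called. The type 1 effect differed between the days by 0.64 (SE 0.17, adjusted p = 0.00869).

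Foxo1, the forkhead factor best known for insulin-regulated metabolism and vessel growth, was not called in any comparison. Its medians lay between 3.85 and 4.67 CPM per kb over the 6 groups. The day 7 change in type 1 tissue was -0.16 (adjusted p = 0.121), and the day 28 change in type 2 tissue 0.15 (adjusted p = 0.205). Libraries poor in cardiomyocyte markers were high in Foxo1 (r = -0.43 within groups, 55 libraries). Among them were type 1 replicate 4 at day 7 (4.93) and type 2 replicate 4 at day 28 (6.62), each the highest of its group. Over the 24 libraries of day 7, Foxo1 had an r within groups of -0.35 with the cardiomyocyte and 0.67 with the adipocyte markers. It was 0.62 with the B and plasma cell and -0.57 with the proliferation list. The part of these cells in the Foxo1 values was not tested. With the covariate the type 1 change at day 7 was -0.23 and was called (adjusted p = 0.0440). It was also called without type 1 replicate 4, or without non-diabetic replicate 7.

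Sesn3, the sestrin that FoxO factors induce and that restrains mTORC1, fell in type 1 tissue at day 7 below both other groups. It ran from 3.05 to 4.97 with a median of 3.77 in non-diabetic, from 2.35 to 3.53 with a median of 2.74 in type 1 and from 3.11 to 3.84 with a median of 3.61 in type 2 tissue. Of the 8 type 1 libraries, 6 lay below every control and 7 below every type 2 library. The change against controls was -0.43, or 1.35-fold lower (SE 0.09, adjusted p = 0.00124), and it was -0.39 with the cardiomyocyte covariate (adjusted p = 0.00585). Fibroblast markers, 7 of 9 called lower in type 1 tissue at day 7, moved with Sesn3 (r = 0.55 within groups over the 24 libraries of that day), and their part in its fall was not tested. At day 28 all 3 medians lay between 2.01 and 2.10, and the type 1 effect was higher there by 0.48 (SE 0.11, adjusted p = 0.0027).

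Fbxo32, the ubiquitin ligase of muscle wasting, ran from 11.0 to 16.5 with a median of 13.2 in non-diabetic, from 5.32 to 14.5 with a median of 8.66 in type 1 and from 11.8 to 17.3 with a median of 13.3 in type 2 tissue at day 7. Of the 8 type 1 libraries 7 lay below the non-diabetic mean and 5 below every control. The type 1 change was -0.54, or 1.46-fold lower (SE 0.16, adjusted p = 0.0142). Within groups over the 24 libraries of day 7, Fbxo32 had an r of 0.79 with the cardiomyocyte, -0.68 with the neutrophil and -0.56 with the erythroid markers. With the mural markers its r was 0.56. Neutrophil (6 of 8) and erythroid markers (5 of 7) were called higher and mural markers (4 of 8) lower in type 1 tissue at that day. Their part in the fall was not tested. With the cardiomyocyte markers as a covariate the change was -0.29 and not called (adjusted p = 0.0626). With shared name numbers summed it was -0.51 (adjusted p = 0.112). At day 28 its medians were 18.6, 18.9 and 20.6, with changes of 0.07 and 0.08 that were not called. The type 1 effect was higher by 0.59 at day 28 (SE 0.20, adjusted p = 0.0359), and without type 1 replicate 4 of day 7 by 0.52 (adjusted p = 0.0636). The call was also lost in 1 of the 5 other settings run for that difference (highest adjusted p = 0.0519).

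**Figure D5:**
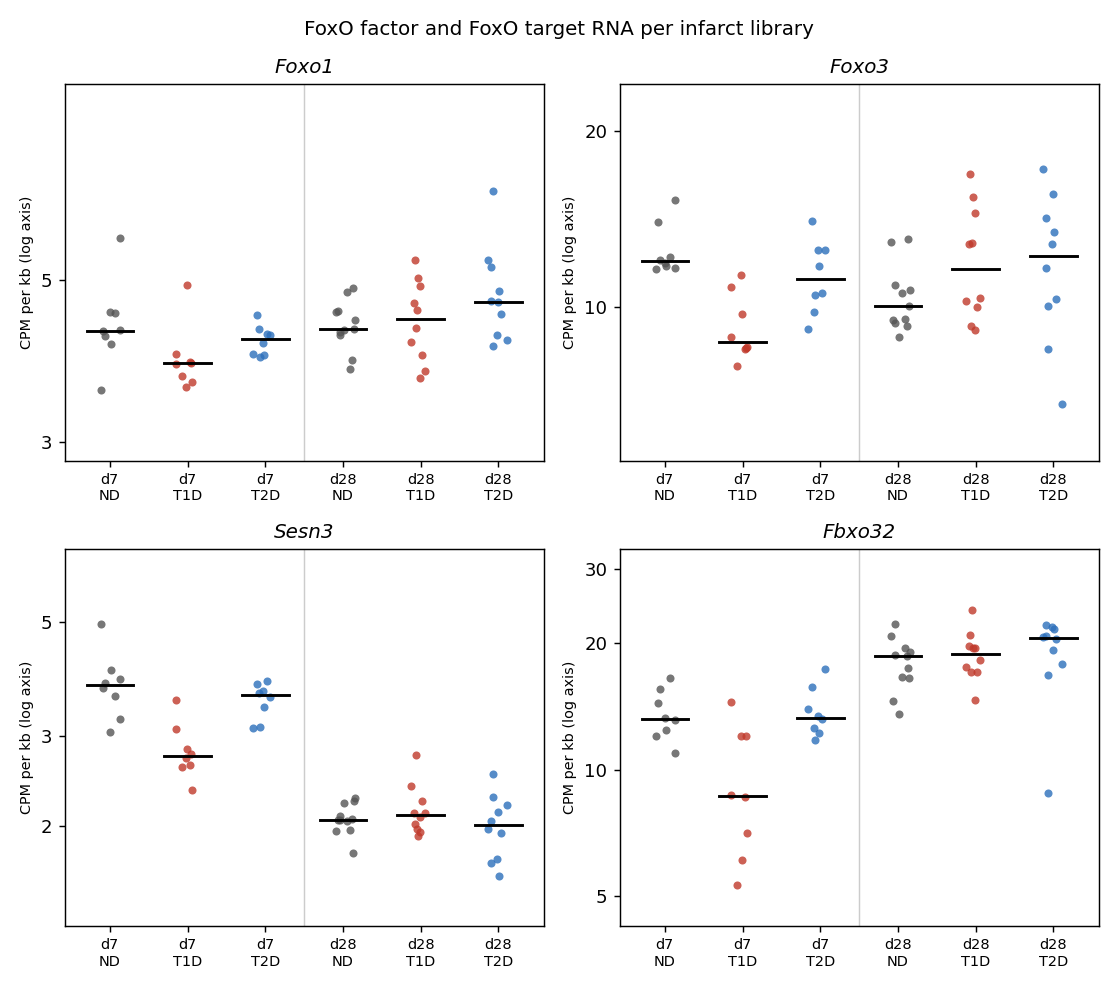
Foxo1, Foxo3, Sesn3 and Fbxo32 RNA in each library, in CPM per kb on log axes, with group medians as bars and groups named as d7 or d28 and ND (non-diabetic), T1D (type 1) or T2D (type 2 diabetic). At day 7 the type 1 median is the lowest of the 3 groups for Foxo3 (8.73), and at day 28 the group medians of Sesn3 lie between 2.01 and 2.10.

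Type 1 was also set directly against type 2 tissue at day 7, where Sesn3 (-0.32, SE 0.09, adjusted p = 0.0417) and Fbxo32 (-0.57, SE 0.16, adjusted p = 0.0471) were called lower. In that comparison 1.51% of all genes were higher and 1.19% lower. Slc2a1 (0.40, adjusted p = 0.0513) and Foxo3 (-0.29, adjusted p = 0.0708) lay near the threshold. Both calls were sensitive to single libraries: Sesn3 was lost in 12 and Fbxo32 in 17 of the 24 fits that each left out 1 library.

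Across the days, the type 1 effect was higher at day 28 for 5 of the 10 genes (Irs2, Foxo3, Fbxo32, Sesn3 and Igf1r) and lower for 0, where 6.98% of 20421 genes were higher and 5.5% lower. The type 2 effect was higher for Irs2 alone, with 1.08% of all genes higher and 0.426% lower. For Slc2a4 the difference between the days in type 1 tissue was 0.82 (adjusted p = 0.179) and for Irs1 it was 0.32 (adjusted p = 0.398), so the day 7 falls of those genes were not shown to differ from their day 28 values. Each effect is taken against the controls of its own day and project. When the 6 groups were ordered by the median of each gene, the ranges of neighbouring groups overlapped at every step but 1, between type 1 tissue at day 28 and at day 7 for Igf1r.

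Further members of the pathway were taken from 7 lists that were chosen with earlier results of these data known. Their counts stand beside the shares of all genes called: in type 1 tissue 11.1% higher and 11.4% lower at day 7 and 2.6% and 1.41% at day 28, and in type 2 tissue 3.85% and 3.5% at day 7 and 7.21% and 3.5% at day 28. Among 21 other FoxO target genes, 6 fell and 0 rose in type 1 tissue at day 7 (11.4% and 11.1% of all genes), with a median change of -0.15 beside -0.01 for all genes. They were Map1lc3b (-0.35, adjusted p = 0.00135), Cdkn1b (-0.30, adjusted p = 0.00663), Fbxo21, Pik3ip1, Gabarapl1 and Ccng2, which serve autophagy, cell cycle arrest, ubiquitin ligation and restraint of phosphoinositide 3-kinase. Trim63 (MuRF1), the other muscle ubiquitin ligase, changed by -0.44 (SE 0.27, adjusted p = 0.251). In type 2 tissue 3 of 21 fell and 1, the cell cycle inhibitor Cdkn1a, rose (0.40, adjusted p = 0.0478). At day 28, 3 rose and 0 fell in each diabetic group. Cdkn1a rose in both (0.61 in type 1, adjusted p = 0.0161, and 0.77 in type 2, adjusted p = 0.000829), beside Bcl6 and Eif4ebp1 in type 1 and Sesn2 and Gabarapl1 in type 2 tissue.

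Among 15 other transporters and genes of glucose entry, 13 were tested at day 7 and 14 at day 28. In type 1 tissue 3 rose and 1 fell at day 7 (11.1% and 11.4% of all genes), and 2 rose and 0 fell at day 28 (2.6% and 1.41%). In type 2 tissue 1 rose and 1 fell at day 7 (3.85% and 3.5%), and 3 rose and 0 fell at day 28 (7.21% and 3.5%). The arrestins Txnip and Arrdc4 were called higher at day 28 in both diabetic groups. Txnip, a glucose-induced protein that takes glucose transporters off the cell surface, rose by 0.82 in type 1 (SE 0.09, adjusted p = 2.63e-06) and by 0.34 in type 2 tissue (SE 0.09, adjusted p = 0.0186). The difference between them was 0.48 (adjusted p = 0.00297). Arrdc4, its relative, rose by 0.31 (adjusted p = 0.00992) and 0.24 (adjusted p = 0.0267). At day 7 Txnip was not called (0.16 in type 1, adjusted p = 0.471), but Arrdc4 was already called higher in type 1 tissue. Hk3, a hexokinase of myeloid cells, rose at day 7 by 0.89 in type 1 and 0.75 in type 2 tissue. In type 1 tissue Slc2a12, an insulin-responsive transporter of muscle and fat, fell by 0.94 (adjusted p = 0.00657) and the urate transporter Slc2a9 rose by 0.61 (adjusted p = 0.0121).

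Of 13 brakes on insulin signalling, 2 rose and 4 fell in type 1 tissue at day 7 (11.1% and 11.4% of all genes). Socs3, which cytokines induce and which targets the receptor substrates, rose by 0.70 (adjusted p = 0.0117), and the receptor-binding adaptor Grb10 fell by 0.29 (adjusted p = 0.00151). Type 2 tissue had 0 of 13 called at day 7, and at day 28 3 rose, among them the phosphatase Ptpn1 (0.35, adjusted p = 0.0281), and 1 fell (7.21% and 3.5% of all genes). In type 1 tissue at day 28, 1 of 13 was called, Socs1 (-0.67, adjusted p = 0.0209). Of 20 genes of the kinase cascade, 5 fell and 1 rose in type 1 tissue at day 7 (11.4% and 11.1% of all genes), among them Foxo4 (-0.37) and the phosphoinositide 3-kinase subunit Pik3r2 (-0.36), and the median was -0.01. Type 2 tissue had 2 lower and 1 higher at day 7 and 1 lower and 1 higher at day 28, and in type 1 tissue at day 28 0 were called.

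Of the ligands and binding proteins, 10 of 11 were tested. In type 1 tissue at day 7, 3 binding proteins fell, among them Igfbp2 (-1.05, adjusted p = 0.0220), while at day 28 Igf2 (1.42, SE 0.42, adjusted p = 0.0487) and Igfbp7 rose. Type 2 tissue had only Igfbp4 called at day 7 (-0.73, adjusted p = 0.0102) and 0 at day 28. Of 12 genes of Slc2a4 vesicle traffic, the vesicle SNARE Vamp2 fell at day 7 in type 1 (-0.38) and type 2 tissue (-0.33) and 1 gene rose in each, while at day 28 0 were called in type 1 and 1 in type 2 tissue. Of 12 hypoxia-responsive genes 2 rose in type 1 tissue at day 7, where 11.1% of all genes rose, Ero1a (0.47, adjusted p = 0.0032) and the glycolytic enzyme Pgk1 (0.31, adjusted p = 0.0262), a share near that of all genes. The other 3 comparisons with controls called 0 of those 12.

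How the members varied within groups was compared with 11853 other genes by Pearson's r of log2 CPM over the 55 libraries after the group means had been subtracted. These values describe libraries that share depth and tissue makeup. Slc2a4 was nearest to Pgam2, Cox7a1 and Ldhb, enzymes of muscle energy supply (r = 0.97 each). Fbxo32 was nearest to Mtus1 (0.86) and Trim63 (0.85), and Insr to March6 (0.91). Among the genes nearest to Irs1 were Aktip and Ift81 (0.84 each). Irs2 was nearest to Sik1 (0.74), Nfil3 (0.66) and Csrnp1 (0.65), of which Sik1 is a kinase induced by cyclic AMP. Foxo3 was nearest to Rnf144b (0.87), Zbtb16 (0.80) and Pik3r1 (0.80), and Foxo1 to Atp10d (0.78). Slc2a1 was nearest to the lactate exporter Slc16a3 (0.71), Igf1r to Adam9 (0.73) and Sesn3 to Tmem64 (0.76). Among the members, the closest pairs were Irs1 with Fbxo32 (0.77), Slc2a4 with Fbxo32 (0.74), Insr with Fbxo32 (0.73) and Slc2a4 with Irs1 (0.72), all of which followed the cardiomyocyte markers. Irs1 and Irs2 had an r of -0.34.

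Genes on the opposite strand overlap Slc2a1 (Gm12868), Irs1 (Gm9747), Irs2 (9530052E02Rik), Foxo1 (Gm20402) and Fbxo32 (Gm15943). The counting of strand is not given in the sources used here, so their reads cannot be told apart from those of the members, but they held at most 0.63% of a member's counts.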

How the data were processed

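RNA from infarcted left ventricle was extracted with PureLink columns and made into TruSeq stranded mRNA libraries, per the labels' protocols. Each day has 1 table of raw counts by Ensembl identifier, as the authors deposited it. The submitters' processing notes name the build mm39 and the tool DESeq2. The aligner, counter, annotation and strand setting were not given in the sources used here. Of the counts from 1 to 49, 76.4% at day 7 and 75.2% at day 28 were even, as if both mates of most pairs had been counted. All 55 columns matched 1 sample each, and no 2 libraries of a group agreed within sampling noise. Symbols and exon lengths came from GENCODE M21.

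Counts were tested in R 4.3.3 with edgeR 4.0.16: TMM scaling, filterByExpr (minimum count 10, total 15) and glmQLFTest, with the 3 groups of a day in 1 fit and Benjamini-Hochberg adjustment over all genes. A fit of all 6 groups gave the difference of effects between days. The test was checked on simulated counts. The SE is the change divided by the square root of F, and intervals are at the 95 percent level. Libraries "on a side" are counted against the other group's mean log2 CPM (prior count 2). The alternatives were DESeq2 1.42.0, limma 3.58.1 (voom), RLE scaling, no filter, 2 groups per fit, the replicate block, the cardiomyocyte covariate, summed libraries and each library left out. Limma-voom, 2 groups per fit and summing were not run for the difference between days, and only the 2 libraries that stood apart were left out there. The members, lists and tests were chosen with earlier results of these data known. Named genes are the 10 members, up to 2 called genes per list, direction and comparison with the smallest p, and the 3 genes most like each member, of which 1 is not reported here. Others named for a count or as a known relative (Trim63, Fbxo21, Pik3ip1, Gabarapl1, Ccng2, Eif4ebp1) were chosen after their values were seen.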

Additional observations from a re-analysis of the deposited data

Results flagged for a closer look

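Single libraries stood far from the rest of their group in 7 of 50 combinations of gene and group of 4 to 10 libraries. The non-diabetic group of day 28, with 11 libraries, was not examined. The genes were measured in the same libraries, so the combinations are not independent and no rate by chance is given. Values are CPM per kb. In type 2 tissue at day 28, replicate 4 had the lowest Irs1 (1.47) and Fbxo32 (8.81) and the highest Foxo1 (6.62), beside the lowest cardiomyocyte markers and the highest B and plasma cell markers of that day. In type 1 tissue at day 28, replicate 4 had the highest Irs1 (4.72), and replicate 10 had the highest Irs2 (18.1). At day 7, Foxo1 was highest in non-diabetic replicate 5 (5.70) and in type 1 replicate 4 (4.93), the libraries with the lowest cardiomyocyte markers of their groups. The part of tissue makeup in these values was not tested.

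The diabetic effect differed between the days by edgeR's test of the difference for 5 genes in type 1 tissue, Irs2 (1.15), Foxo3 (0.64), Fbxo32 (0.59), Sesn3 (0.48) and Igf1r (0.31), and in type 2 tissue for Irs2 (1.16), in log2 units as day 28 minus day 7. Day and sequencing project cannot be told apart.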

How the results depend on the processing

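Of the 10 genes, 6 were called in type 1 against non-diabetic tissue at day 7, and each single-library omission left 6 to 7. With libraries of a shared name number summed, 3 were called (Slc2a4, Foxo3 and Sesn3). Of all genes 22.5% were called there in the edgeR fit used above, and 7.69% summed. For type 1 against type 2 at day 7 the count of 2 became 4 with DESeq2, 5 with limma-voom, 1 with 2 groups per fit, 1 with the replicate block, 1 with the cardiomyocyte covariate, and 0 without the filter or summed, and 0 to 4 with 1 library left out. The share of all genes called there was 2.71% in the edgeR fit used above, 5.69% with DESeq2 and 16.1% with limma-voom. It was 5.59% with 2 groups per fit, 2.05% with the block, 3.19% with the covariate, 0.787% without the filter and 0% summed. At day 28 the type 1 count of 2 became 4 with limma-voom, 1 with the replicate block (Irs1, adjusted p = 0.0538) and 0 summed. Of all genes 4.02% were called there in the edgeR fit used above, 16% with limma-voom, 1.76% with the block and 0.0282% summed. The type 2 count of 2 became 1 summed and 2 to 3 with a library left out, and the single call between the diabetic groups became 0 summed. Summing took the share of all genes called from 10.7% to 2.01% in type 2 tissue. Between the diabetic groups it went from 3.21% to 0.588%. Summing leaves fewer samples. The difference between days was refitted without 1 library only for type 1 replicate 4 of day 7 and type 2 replicate 4 of day 28, and it had 4 and 5 calls in type 1 and 1 and 1 in type 2 tissue. Of the 5 other settings run for that difference, 1 lost the Fbxo32 call in type 1 tissue. The replicate block changed no other call of a member, and replicate numbers did not pair libraries: 0 to 3 libraries per pair of groups correlated best with their own number.

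Signs turned only for changes that were not called. At day 7 these were Slc2a1 (-0.0197) and Irs2 (0.0718) in type 2 tissue with limma-voom, and in type 1 tissue Insr (0.12) and Irs2 (-0.079) with the covariate and Irs2 (-0.0236) summed. At day 28 they were Insr in type 2 tissue (0.0018) and Irs1 between diabetic groups (-0.0636) with limma-voom, and with the covariate Foxo1 in type 1 (-0.0314) and Insr (0.10) and Slc2a4 (0.033) in type 2 tissue. Summed, Fbxo32 between diabetic groups was 0.0354, and with the covariate the Insr type 1 difference between days was -0.115. With 1 library left out, signs turned for Slc2a1 (-0.0297 to 0.0699) and Fbxo32 (-0.0284 to 0.0728) in type 2 tissue at day 7, for Insr (-0.0051 to 0.0903) and Foxo1 (-0.0077 to 0.0526) in type 1 and Slc2a1 (-0.0613 to 0.0143) in type 2 tissue at day 28. They also turned between diabetic groups at day 28 for Irs1 (-0.0595 to 0.0568), Foxo3 (-0.0569 to 0.0809) and Fbxo32 (-0.0984 to 0.0194), and for the Sesn3 type 2 difference between days (-0.0087 to 0.0394).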
